A study of Mus musculus with 8 samples.

Results

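TEC transcripts, gene models that the annotation still holds as unproven and awaiting experiment, were examined in N2a cells, a mouse neuroblastoma line, together with the protein-coding genes they lie in or beside. The members were the TEC rows on chromosomes 1 to 19 whose counts over the 8 libraries added up to 100 or more, and there were 752 of them among 49164 rows with counts. The members were chosen by their total count over both groups, so their level is a description. The rule did not use the difference between groups, but near the threshold a member can reach 100 counts mostly through the group where it is higher. Each member was placed by its overlap with a protein-coding row of the deposited table. Of the 752, 488 overlapped a protein-coding gene, here called the host, on the same strand, 104 did so only on the opposite strand and 160 overlapped none.

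One group was 4 libraries of N2a cells transiently transfected with an overexpression construct for Nrsn2, a small membrane protein of neuronal vesicles, and the other was 4 control libraries, all collected at 24 hours. Neither the treatment of the control cells nor the separate culture of the 4 samples of a group is stated in the labels, and the spread behind each p-value may therefore be technical. Transfection was transient, so a library can mix cells with and without the construct. PolyA RNA was sequenced from a library kit that does not mark strand. Nrsn2 was at 147, 173, 156 and 170 CPM (counts scaled to a common library size) in the overexpression libraries and at 8.42, 8.53, 6.54 and 10.6 CPM in the control libraries, a log2 difference of 4.23 ± 0.11 (SE). Library totals were 17522453 to 21395096 counts with overexpression and 15347255 to 20600086 counts in controls. Of 15187 genes tested, 35.4% were called, 18.6% higher and 16.8% lower with overexpression at an adjusted p under 0.05 (edgeR quasi-likelihood test, Benjamini-Hochberg adjustment), and their median log2 fold change was within 0.01 of 0.

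The TEC biotype is given to loci supported by clusters of expressed sequence tags that carry signs of polyadenylation but whose coding status is unsettled. Most are unspliced, and many lie inside the introns of coding genes, the stretches that the spliceosome removes from the nascent RNA. In an intron, RNA of a separate TEC transcript and RNA of the unspliced host precursor have the same sequence. Other TEC loci start beside a coding gene's promoter and run away from it on the opposite strand, the arrangement called head to head, or bidirectional. In mammalian cells, short-lived transcripts from such promoters are trimmed or degraded by the nuclear exosome, and the Integrator complex and the cleavage and polyadenylation machinery end them early.

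The members were mostly unspliced and of low abundance. By gene identifier all 752 matched the GENCODE M21 annotation, in which 745 had a single exon. Their median length was 2501.5 bp, with a range of 129 to 74456 bp. The median total was 228.5 counts over the 8 libraries, with quartiles of 151 and 415.5, and the median level was 1.55 CPM. Of the 488 same-strand members, 485 lay wholly inside their host and 464 touched none of its annotated exons, and these 464 are called intronic below. The members with a host fell in 453 coding genes, of which 88 held more than 1 member. A further 34 members of either the opposite-strand or the non-overlapping class were head to head with a coding gene, with 5′ ends at most 1000 bp apart. Those of the opposite-strand class overlap a coding gene on the other strand, in most cases the head-to-head partner. These positional groups, and the bins of host length, position, total count and GC content used below, were chosen after values had been seen. They carry no test of their own.

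The 3′ ends of intronic members are shown because polyadenylated transcripts usually carry a polyadenylation signal, most often AATAAA, near their end. The last 60 bases of 6 transcripts with large decreases, from the single-exon GENCODE M21 models of the same identifiers and lengths, held no AATAAA hexamer. Other signal hexamers were not searched for, and the end of Gm49159 holds the variant ATTAAA. The last 3 lines are the 3 most abundant intronic members that do have AATAAA in their last 50 bases and little sequence in common with other coding transcripts, with the hexamer in capitals.
Gm48335: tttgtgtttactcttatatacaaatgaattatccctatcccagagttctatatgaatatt
Gm49411: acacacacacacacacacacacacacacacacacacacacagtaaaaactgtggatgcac
Gm49159: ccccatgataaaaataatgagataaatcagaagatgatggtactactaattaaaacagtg
Gm48766: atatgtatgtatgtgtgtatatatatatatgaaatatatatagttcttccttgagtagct
Gm44102: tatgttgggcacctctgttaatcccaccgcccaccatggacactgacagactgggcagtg
Gm42907: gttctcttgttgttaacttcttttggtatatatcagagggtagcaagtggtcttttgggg
Gm37558: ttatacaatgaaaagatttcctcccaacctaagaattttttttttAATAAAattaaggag
Gm45222: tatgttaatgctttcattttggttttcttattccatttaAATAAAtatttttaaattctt
Gm43815: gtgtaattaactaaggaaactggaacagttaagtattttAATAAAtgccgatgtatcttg

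On GRCm39, as the deposited table gives positions, Gm48335 lies at chr10:30616148-30619958 (minus strand) in Ncoa7, a nuclear receptor coactivator gene, and Gm49411 at chr15:77059989-77062464 (minus strand) in Rbfox2, which encodes a splicing regulator. Gm49159 lies at chr14:86941998-86944621 (minus strand) in Diaph3, a formin gene of the actin cytoskeleton, and Gm48766 at chr13:36436342-36440903 (plus strand) in Fars2, the mitochondrial phenylalanyl-tRNA synthetase gene. Gm44102 lies at chr6:97556388-97558053 (minus strand) in Frmd4b, and Gm42907 at chr5:123535303-123537450 (plus strand) in Mlxip, a glucose-responsive transcription factor gene. Gm37558 lies in Kpna4, an importin alpha gene, Gm45222 in Picalm, a clathrin assembly gene, and Gm43815 in Nfxl1. AATAAA was present on the transcript strand within the last 50 bases of 13.8% of the 464 intronic members and 19.9% of all members, against 42.8% of 1048 autosomal lncRNAs and 59.4% of 11514 autosomal protein-coding genes with 100 or more counts. A run of 12 or more A anywhere in the transcript was present in 14.7% of intronic members, 11.4% of the lncRNAs and 12% of the protein-coding genes.

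The promoters below are shown because they serve 3 of the head-to-head members with the largest increases. Each line is the 250 bases before the start of the coding gene, read on that gene's strand (RefSeq promoters, GRCm38.p6), and capitals mark the bases that the TEC transcript covers on the other strand. The stretches are chr2:127269979-127270228 (plus strand) for Stard7, a lipid transfer protein gene, chr5:45669675-45669924 (plus strand) for Ncapg, a condensin subunit gene, and chr1:185329402-185329651 (minus strand) for Iars2, the mitochondrial isoleucyl-tRNA synthetase gene.
Stard7 promoter with Gm10766: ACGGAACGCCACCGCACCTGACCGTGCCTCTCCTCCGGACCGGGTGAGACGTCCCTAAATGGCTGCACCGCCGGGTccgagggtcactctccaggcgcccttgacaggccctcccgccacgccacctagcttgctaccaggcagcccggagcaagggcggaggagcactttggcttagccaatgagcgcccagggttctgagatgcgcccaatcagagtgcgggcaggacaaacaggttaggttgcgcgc
Ncapg promoter with 1600023N17Rik: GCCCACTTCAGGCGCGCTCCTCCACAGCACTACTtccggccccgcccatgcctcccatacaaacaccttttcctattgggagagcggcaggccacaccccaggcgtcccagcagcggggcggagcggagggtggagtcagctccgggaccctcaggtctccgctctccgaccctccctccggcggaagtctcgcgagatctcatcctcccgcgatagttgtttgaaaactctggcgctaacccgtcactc
Iars2 promoter with Gm37785: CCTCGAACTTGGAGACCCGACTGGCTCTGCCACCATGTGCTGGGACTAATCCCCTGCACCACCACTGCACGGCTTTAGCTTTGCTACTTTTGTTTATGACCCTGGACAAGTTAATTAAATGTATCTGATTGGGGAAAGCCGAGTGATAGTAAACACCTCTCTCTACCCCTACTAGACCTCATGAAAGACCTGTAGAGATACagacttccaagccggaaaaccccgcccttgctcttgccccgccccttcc

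The TEC start lay 174, 216 and 49 bases before the coding start in the Stard7, Ncapg and Iars2 promoters of that build. Of the 34 coding partners, 24 had a RefSeq promoter, and in 10 of these the TEC transcript began within the 250 bases. In 1 more, that of Ipo8, it covered the whole stretch and began past the coding start. The motif counted was CG, which reads the same on both strands. The median was 20 CG per 250 bases in the 24 partner promoters, against 6 in all 32851 promoters. All 34 partners were among the genes tested here, while the 32851 promoters were not limited to such genes. The Iars2 promoter had 7 CG.

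TEC members were called lower more often than higher. With overexpression, 233 of the 752 were called lower and 59 higher, against 16.8% lower and 18.6% higher among all genes tested, and all 752 passed the filter on low counts. The median log2 fold change of the members was -0.37, and 583 of them were negative. The counts differed by class. In the same-strand class 183 were lower (37.5%) and 15 higher (3.07%), with a median of -0.50. In the opposite-strand class 29 were lower (27.9%) and 14 higher (13.5%), with a median of -0.31. In the class with no coding overlap 21 were lower (13.1%) and 30 higher (18.8%), with a median of -0.04. The 4 overexpression libraries were all below the 4 control libraries for 160 same-strand members and all above them for 12, against 15.4% and 17.2% of all tested genes. Among protein-coding genes on the same chromosomes with 100 or more counts, 16.3% were lower and 20.8% higher, and among such lncRNAs 15.8% were lower and 16.2% higher. In genes of like abundance, of 1111 protein-coding genes with totals between the quartiles of the members, 7.02% were lower and 15.4% higher, and of 442 lncRNAs in that range 14.9% were lower and 14.3% higher, with medians of 0.04 and -0.05. With 50 or more counts asked of each group, an alternative added after seeing the data, 152 same-strand members were lower and 12 higher. How many same-strand members that filter left is not given, and neither are the shares of all genes under it. The 152 and 12 therefore cannot be read as shares or set beside the shares above. The shares of the classes and gene types were not tested against each other. In bulk RNA, fewer cells that hold a transcript and less of it per cell cannot be told apart.

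**Figure D1:**
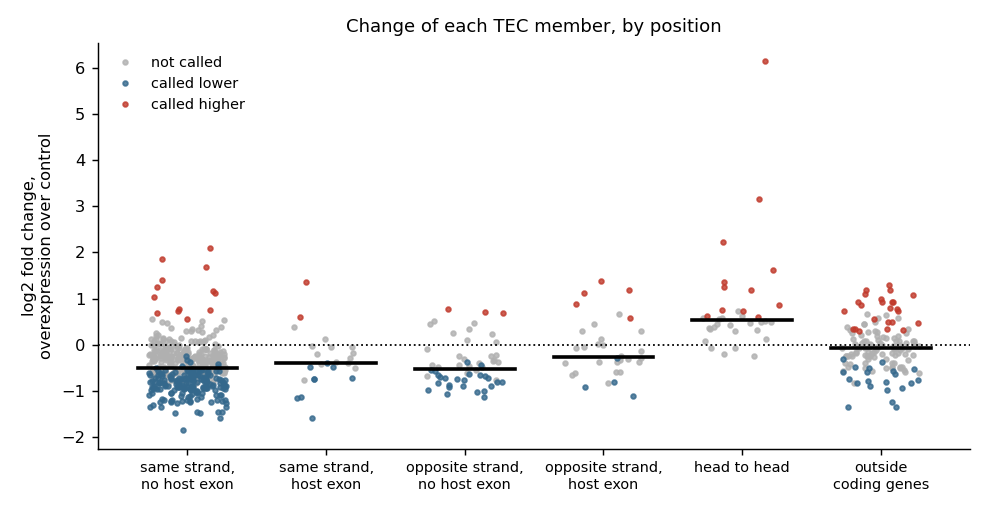
Each point is 1 TEC member, placed by position class on the horizontal axis and by its log2 fold change, overexpression over control, on the vertical axis. Red points were called higher and blue points lower at an adjusted p under 0.05 (edgeR), black bars are the class medians, and the dotted line is the median of all tested genes. The intronic same-strand class is centred at -0.51 and the head-to-head class at 0.53. The highest point is Gm47513, which had 1 count in all controls, so its plotted fold change depends on the prior count.

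By position, the members differed within their classes. Of the 464 intronic members 174 were lower and 13 higher, with a median of -0.51, and 45 were lower by more than 2-fold. That size of decrease was called in 1.4% of all tested genes. With totals between the quartiles of the members, it was called in 19 of 442 lncRNAs and 18 of 1111 protein-coding genes. Of 54 opposite-strand members that touched no host exon, 25 were lower and 3 higher, with a median of -0.52. The 32 opposite-strand members that overlapped a host exon had 4 lower and 5 higher, and their median was -0.27. The 24 same-strand members that touched a host exon had 9 lower and 2 higher, with a median of -0.40. The 144 members outside coding genes and away from their promoters had 21 lower and 24 higher, with a median of -0.06. The 34 head-to-head members had none lower in edgeR (0 also by DESeq2 and limma-voom, in every fit that left out 1 library, and at an unadjusted p under 0.05) and 12 higher, with a median of 0.53 and 30 positive values.

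The shift of the intronic members was visible in each library. Their median level, on the scale log2(CPM + 0.1), was 0.52, 0.62, 0.37 and 0.33 in overexpression libraries 1 to 4, and 0.94, 0.92, 0.88 and 0.97 in control libraries 1 to 4. Every overexpression library was below every control library. The median level of the 346 tested hosts of these members was 6.51, 6.51, 6.47 and 6.52 in the overexpression libraries and 6.57, 6.51, 6.50 and 6.53 in the control libraries on the same scale, and the groups overlapped. The head-to-head members went the other way, at 0.44, 0.53, 0.64 and 0.56 in the overexpression libraries and 0.10, -0.05, -0.15 and 0.04 in the control libraries.

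**Figure D2:**
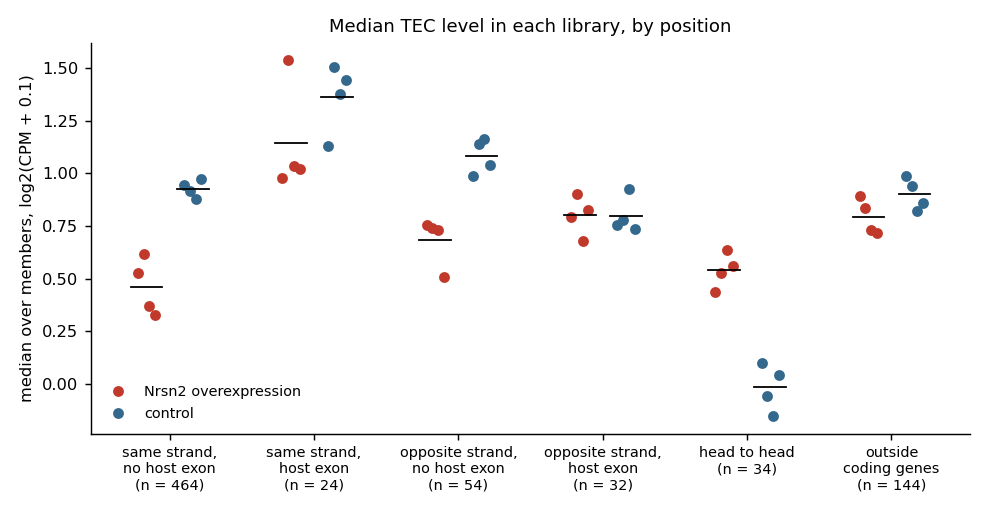
Points are libraries, red for Nrsn2 overexpression and blue for control, and each gives the median over the members of a position class on the scale log2(CPM + 0.1), while bars are the mean of the 4 libraries. Overexpression libraries lay below every control library for members without a host exon on either strand and above every control library for head-to-head members. For the members that overlap a host exon, on either strand, and for those outside coding genes, the groups overlapped.

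The summed level did not follow the median, and a few members hold most of the counts. The summed level of the same-strand class was 2843, 2805, 2649 and 2564 CPM in overexpression libraries and 2914, 2724, 2718 and 2788 CPM in control libraries, and the groups overlapped. The 12 most abundant members had 70.6% of all member counts, and in 10 of them more than 10% of the 31-base words were also found in coding transcripts other than the host. Gm42860, more than 1 Mb from any coding gene, was at 1522, 1513, 1571 and 1539 CPM in overexpression libraries and at 1710, 1475, 1669 and 1502 CPM in control libraries, and 83.1% of its words recur in other coding transcripts. Gm47652, inside Ccdc15, was at 1139, 1090, 1062 and 1023 CPM with overexpression and at 1090, 992, 1031 and 969 CPM in controls, with 32.8% of its words shared. Both overlapped between the groups, and reads of such sequences may come from other loci. Of the 12 most abundant, only Gm37625 was called (edgeR, adjusted p under 0.05). It lies in the first part of Zranb3, a helicase gene of replication fork repair, and shares 4.32% of its words. Gm37625 was at 446, 422, 436 and 413 CPM in overexpression libraries and at 278, 245, 251 and 262 CPM in control libraries, and no library of the groups overlapped. Its log2 fold change was 0.73 ± 0.06 (edgeR adjusted p = 2.5e-07), while Zranb3 itself was at -0.14 ± 0.11 (edgeR adjusted p = 0.342).

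The largest decreases among the same-strand members were in genes of varied function. Gm48335 in Ncoa7 was at 0.279, 0.273, 0.364 and 0.496 CPM in overexpression libraries and at 1.18, 1.10, 1.8 and 1.13 CPM in control libraries. The groups were well apart, and control library 3 was the highest. The log2 fold change was -1.86 ± 0.32 (edgeR adjusted p = 0.000223), and Ncoa7 itself was also lower, at -0.36 ± 0.08 (edgeR adjusted p = 0.00312). Gm49411 in Rbfox2 was at 0.558, 0.637, 0.520 and 0.551 CPM with overexpression and at 2.29, 1.73, 1.2 and 1.62 CPM in controls, a log2 fold change of -1.58 ± 0.27 (edgeR adjusted p = 0.000213). The overexpression libraries were close to one another and below all controls, while Rbfox2 stood at -0.08 ± 0.06 and was not called. Gm49159 in Diaph3 was at 0.446, 0.728, 0.312 and 0.661 CPM with overexpression and at 1.41, 1.15, 1.53 and 1.96 CPM in controls, a log2 fold change of -1.48 ± 0.29 (edgeR adjusted p = 0.000846). Gm49616, which touches an exon of Arhgef3, a guanine nucleotide exchange factor gene, was at 0.390, 0.955, 0.260 and 0.551 CPM with overexpression and at 2.06, 1.04, 1.34 and 2.20 CPM in controls. Its log2 fold change was -1.59 ± 0.35 (edgeR adjusted p = 0.00174), beside -0.39 ± 0.08 for Arhgef3. Each of these values rests on 116 to 164 counts over all 8 libraries, most of them in the controls. The overexpression libraries held 5, 6, 7 and 9 counts of Gm48335 and 10, 14, 10 and 10 of Gm49411. They held 8, 16, 6 and 12 counts of Gm49159 and 7, 21, 5 and 10 of Gm49616. All of these members are therefore left out by the alternative that asked a minimum count of each group.

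A few same-strand members went up. Gm42732, in Ociad1, an endosomal and mitochondrial protein gene, was at 23.5, 13.7, 17.2 and 13.5 CPM in overexpression libraries and at 4.65, 6.29, 4.07 and 5.88 CPM in control libraries, with overexpression library 1 the highest. Its log2 fold change was 1.69 ± 0.17 (edgeR adjusted p = 1.75e-06), and Ociad1 stood at -0.03 ± 0.06. Gm38047, in the centriole gene Sclt1, was at 2.34, 0.819, 0.987 and 1.10 CPM with overexpression and at 0.235, 0.115, 0.267 and 0.734 CPM in controls. Gm38047 was higher by 1.85 ± 0.45 (edgeR adjusted p = 0.00382), while Sclt1 was lower, at -0.41 ± 0.07. The shared words were 15.1% in Gm42732 and 12.6% in Gm38047. Gm43775, in the RNA-binding protein gene Rbm47, had 104 counts in all and a log2 fold change of 2.09 ± 0.35 (edgeR adjusted p = 0.000197). Gm37750, in Gm28305, had all of its words in other coding transcripts (100%) and a log2 fold change of 1.41 ± 0.25. Without the members that share over 10% of their words, 8 intronic members were called higher.

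Host genes had a median log2 fold change of -0.05. Of 434 tested hosts 65 were higher (15%) and 111 lower (25.6%), against 18.6% higher and 16.8% lower among all genes tested. In the ranges of host length used below, from short to long, 15.3%, 22.6%, 25.7% and 27.3% of all protein-coding genes were lower. In the same order, 21.6%, 15.1%, 14.3% and 12.7% were higher, so the shares of the hosts were near those of long genes. Of the 183 same-strand members called lower, 57 had a host that was also lower, 19 had one that was higher and 107 one that was not called. Intronic members were called lower in 53 of 115 cases where the host was lower, in 19 of 60 where it was higher and in 102 of 271 where it was not called. Across the 446 intronic members with a tested host, the log2 fold changes of member and host had a Pearson r of 0.13 and a Spearman rank correlation of 0.16, given as a description since pairs share their libraries and some share a host.

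The ratio of a member to its host was tested in each library (limma on log2 ratios with a prior count of 2, adjusted over all 2863 pairs of a gene and the coding gene it overlaps). Of 470 same-strand TEC pairs, 139 had a lower ratio with overexpression (29.6%) and 13 a higher one, against 16.1% lower and 9.81% higher over all pairs. The median log2 change of the ratio was -0.43. Same-strand pairs of other kinds had medians nearer 0: -0.16 for 130 lncRNAs with 17 lower and 11 higher, -0.11 for 81 processed pseudogenes with 8 lower and 6 higher, and -0.04 for 167 pairs of coding genes with 26 lower and 25 higher. Of 101 opposite-strand TEC pairs 22 had a lower ratio and 15 a higher one, with a median of -0.26. The difference between these kinds of pair was not tested.

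**Figure D3:**
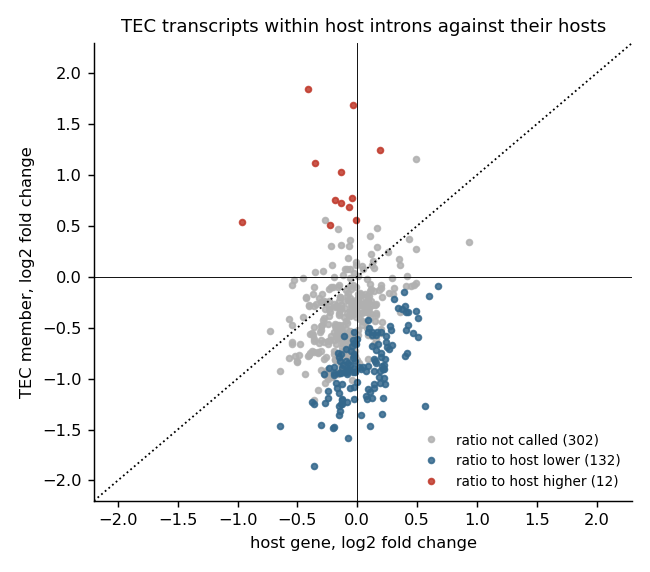
Each point is 1 of 446 intronic same-strand members, with the log2 fold change of its host on the horizontal axis and its own on the vertical axis, both overexpression over control. The dotted diagonal marks equal change, and colour gives the limma call of the ratio: 132 lower in blue and 12 higher in red. Most points lie below the diagonal, with hosts spread around 0 and members centred near -0.53.

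The pairs with the largest relative decrease had hosts that rose or did not change detectably, which a ranking by member minus host favours. Fars2 was at 13.8, 14.5, 14.5 and 13.1 CPM in overexpression libraries and at 8.95, 9.63, 10.1 and 9.06 CPM in control libraries, a log2 fold change of 0.57 ± 0.10 (edgeR adjusted p = 0.000213). Its intronic member Gm48766 was at 1.51, 0.910, 0.675 and 1.05 CPM with overexpression and at 2.41, 2.83, 2.20 and 2.45 CPM in controls, a log2 fold change of -1.27 ± 0.24 (edgeR adjusted p = 0.000502). Host and member thus moved in opposite directions in the same libraries, and their log2 ratio changed by -1.78 ± 0.25 (limma adjusted p = 9.51e-05). In Frmd4b, which encodes a FERM domain scaffold protein, the host was higher by 0.21 ± 0.07 (edgeR adjusted p = 0.0292). Gm44102 inside it was at 0.279, 0.591, 0.312 and 0.386 CPM with overexpression and at 1.06, 0.923, 0.934 and 1.18 CPM in controls, and the ratio changed by -1.42 ± 0.28 (limma adjusted p = 0.00171). In Mlxip the ratio of Gm42907 changed by -1.36 ± 0.30 (limma adjusted p = 0.00376), with Mlxip at 0.11 ± 0.07. The overexpression libraries held 5, 13, 6 and 7 counts of Gm44102 and 7, 9, 10 and 4 of Gm42907. Both members are left out by the alternative that asked a minimum count of each group. Gm37790, opposite an exon of Tgif2, a homeobox repressor gene, had a ratio change of -1.37 ± 0.42 (limma adjusted p = 0.0270) without a call for either gene alone, and Tgif2 was under 1 CPM in every library.

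Several members inside 1 gene are not independent of each other, but they show how far the change extends along a host. Of the genes that held 5 or 6 members each, 6 are described here. Maml3, a Notch coactivator gene of 419 kb, had 6, of which 5 were lower, with log2 fold changes of -1.21 to -0.59. The most abundant, C130089K02Rik, was at 6.53, 7.28, 5.40 and 5.89 CPM in overexpression libraries and at 14.8, 15.6, 12.3 and 15.6 CPM in control libraries, and it changed by -1.21 ± 0.12 (edgeR adjusted p = 1.29e-06). Maml3 itself stood at -0.12 ± 0.08 (edgeR adjusted p = 0.249). The spread of Maml3 members ran from 7.8% to 82.4% of the way along the gene. In Apbb2, an adaptor gene for the amyloid precursor protein, 4 of 5 members were lower and the host was at -0.02 ± 0.06. In the helix-loop-helix factor gene Tcf12, 4 of 5 were lower and the host was at 0.14 ± 0.06. In the ankyrin gene Ank2, 3 of 6 were lower, with the largest decrease in Gm42972, at 0.892, 2.00, 1.30 and 1.43 CPM with overexpression and 3.30, 3.52, 3.34 and 4.41 CPM in controls. Satb1, a chromatin organizer gene, had 1 of 5 lower. In Kansl1l no member was called in either direction by edgeR (1 at an unadjusted p under 0.05, and 0 adjusted by DESeq2 or limma-voom), although 3 of its 5 had a lower ratio to the host. Kansl1l itself was higher by 0.43 ± 0.09 (edgeR adjusted p = 0.00183), and its members were at -0.47 to 0.52.

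**Figure D4:**
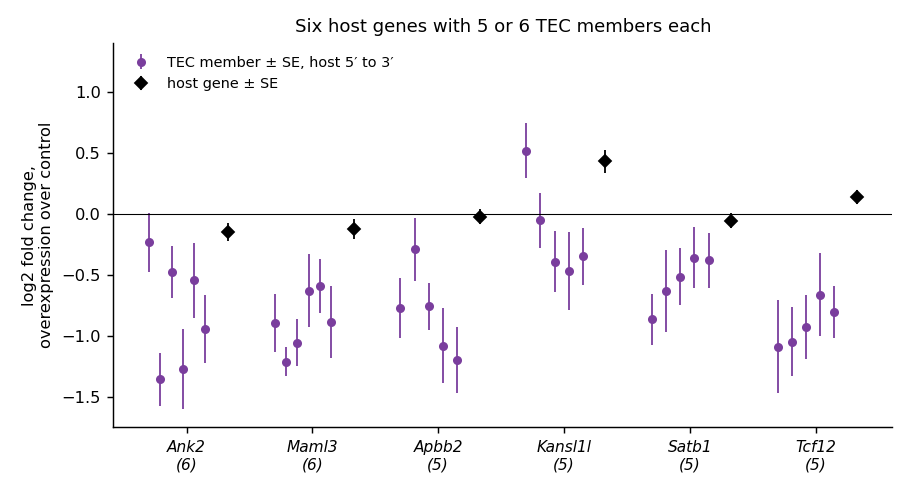
Log2 fold change, overexpression over control, of each TEC member (purple circles, placed from the host's 5′ to 3′ end) and of the host itself (black diamonds) for 6 genes with 5 or 6 members, with bars of 1 SE. Every member lies below its host in 5 of these 6 genes, and 1 member of Kansl1l lies above, while hosts lie between -0.15 and 0.43.

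Members in longer hosts had larger decreases. With the intronic members split by the genomic length of the host, the median log2 fold change was -0.26 for hosts of 9.69 to 58.6 kb, -0.45 for 58.9 to 106 kb, -0.58 for 106 to 235 kb and -0.77 for 237 to 1973 kb. The number lower was 23 of 116, 40 of 116, 47 of 117 and 64 of 115. All protein-coding genes in the same length ranges had medians of 0.03, -0.03, -0.05 and -0.09, with 15.3%, 22.6%, 25.7% and 27.3% called lower. Position along the host showed no such order: in 5 equal parts from the 5′ to the 3′ end, 32.4%, 36.8%, 48.9%, 32.9% and 40% of the intronic members were lower.

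The intronic members were AT-rich, with a median GC content of 40.7%, against 46.6% in the lncRNAs and 49.7% in protein-coding genes. GC content moved with the fold change in the other gene types too. At a GC content up to 38%, the median log2 fold change was -0.56 for intronic members, -0.24 for lncRNAs and -0.12 for protein-coding genes. Above 48% it was -0.52 for 25 intronic members, 0.06 for lncRNAs and 0.08 for protein-coding genes. With per-library offsets for GC content and length drawn from protein-coding genes, an alternative added after seeing the data, 141 intronic members were lower and their median was -0.43. The median was -0.35 for the 64 intronic members with AATAAA near the 3′ end, of which 19 were lower, and -0.54 for the other 400, of which 155 were lower.

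**Figure D5:**
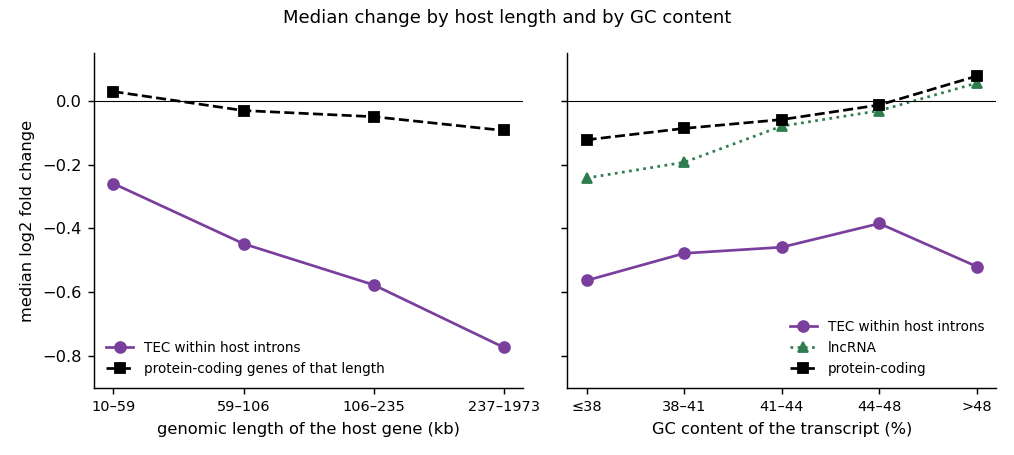
Median log2 fold change, overexpression over control, by the length of the host gene in kb (left) and by the GC content of the transcript in percent (right). Purple circles are intronic same-strand members, black squares protein-coding genes and green triangles lncRNAs. The intronic members go from -0.26 in the shortest hosts to -0.77 in the longest, and in every GC bin they lie below the other gene types.

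Where an opposite-strand member overlaps a host exon, reads of the pair cannot be told apart in libraries without strand. Opposite-strand members in host introns have the same limit for reads of the unspliced host precursor. Among those in introns, Gm49268 in the F-box gene Fbxl7 was at 1.34, 1.5, 1.14 and 1.93 CPM in overexpression libraries and at 3.30, 1.96, 2.94 and 3.82 CPM in control libraries. The log2 fold change was -1.03 ± 0.23 (edgeR adjusted p = 0.00207), and Fbxl7 stood at 0.18 ± 0.08. Gm38192, in the GPI anchor enzyme gene Pigb, changed by -1.06 ± 0.26 (edgeR adjusted p = 0.00408), and Gm10773, in the chondroitin sulfotransferase gene Chst11, by -1.14 ± 0.33 (edgeR adjusted p = 0.0113). Gm42934, which overlaps an exon of the autophagy scaffold gene Wdfy3, was lower, at -1.11 ± 0.33 (edgeR adjusted p = 0.0134) while Wdfy3 was higher by 0.29 ± 0.07. Other members of this class that overlap a host exon included several that rose. Gm37621, opposite Ppp2r3a, a regulatory subunit gene of protein phosphatase 2A, was at 24.9, 18.6, 19.4 and 20.05 CPM with overexpression and at 9.71, 8.82, 10.1 and 9.30 CPM in controls. It rose by 1.13 ± 0.11 (edgeR adjusted p = 6.87e-07), and the levels of the 2 groups were far apart, while Ppp2r3a was at -0.19 ± 0.08. D7Bwg0826e, opposite the ciliary gene Fuz, rose by 1.37 ± 0.25 beside 0.85 ± 0.27 for Fuz, and Gm43766, opposite Rab2b, rose by 1.19 ± 0.34 beside 0.57 ± 0.19 for Rab2b. Of their length, 31.8% in D7Bwg0826e and 45.6% in Gm43766 lies in host exons, against 2.3% in Gm37621, so reads of these pairs cannot be told apart there. Of the abundant members of this class, 9330162G02Rik, which overlaps an exon of the imprinted ubiquitin ligase gene Ube3a, was lower, at -0.29 ± 0.09 (edgeR adjusted p = 0.0131). Neither Gm43622 in Cspg5 nor 6430511E19Rik, which overlaps an exon at the end of the transcription termination factor gene Pcf11, was called.

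The head-to-head members were the positional group with the highest median. Gm10766, which starts 164 bp from Stard7, was at 1.34, 0.682, 1.51 and 1.32 CPM in overexpression libraries and at 0.118, 0.288, 0 and 0.0979 CPM in control libraries. The groups did not overlap, and the log2 fold change was 3.15 ± 0.48 (edgeR adjusted p = 7.63e-05), while Stard7 was at 0.11 ± 0.06. 1600023N17Rik, 211 bp from Ncapg, was at 2.40, 2.00, 2.44 and 2.59 CPM with overexpression and at 0.530, 0.461, 0.134 and 0.783 CPM in controls. It rose by 2.23 ± 0.30 (edgeR adjusted p = 2.5e-05), and Ncapg was lower, at -0.23 ± 0.08 (edgeR adjusted p = 0.0358). Gm37785, 55 bp from Iars2, was at 1.06, 1.5, 1.77 and 1.54 CPM with overexpression and at 0.353, 0.461, 0.668 and 0.783 CPM in controls. It rose by 1.35 ± 0.29 (edgeR adjusted p = 0.00153), while Iars2 fell by 0.47 on the log2 scale. Gm26616 rose by 1.63 ± 0.38 (edgeR adjusted p = 0.00285), and Ppp1r15b, a regulatory subunit gene of the eIF2 alpha phosphatase, was at -0.14 ± 0.07. Their 5′ ends lie 639 bp apart and the genes overlap, with 20.6% of Gm26616 in Ppp1r15b exons. Gm47513 had 115 counts in the overexpression libraries and 1 in the control libraries, a ratio of 104 after scaling with an exact 95% interval of 18.25 to 4131 for counting error alone. It overlaps the zinc finger gene Zfp367, with 5′ ends 621 bp apart and 29.9% of its length in Zfp367 exons. Zfp367 was higher by 0.23 ± 0.08. Where a member overlaps an exon of its partner, reads of the pair cannot be told apart in libraries without strand. Other called members rose less. Those beside Hyou1, an endoplasmic reticulum chaperone gene, and Ipo8, an importin gene, rose by 1.24 ± 0.30 and 1.19 ± 0.18. Those beside Camkk2, a kinase gene, Cpeb1 and Slc20a1 rose by 0.86 ± 0.29, 0.75 ± 0.28 and 0.73 ± 0.22. Those beside Zfand4 and Ergic2 rose by 0.62 ± 0.23 and 0.60 ± 0.20.

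Of the 34 coding partners 7 were higher and 8 lower, counts near the shares of 18.6% higher and 16.8% lower over all genes tested, and their median log2 fold change was -0.10. Beside the 12 members called higher 1 partner was higher, 2 were lower and 9 were not called. These 12 members had 101 to 543 counts in all. When 50 or more counts were asked of each group, 5 head-to-head members were called higher. How many of the 34 that filter left is not given, so the 5 cannot be read as a share. Gm10766, 1600023N17Rik, Gm37785, Gm26616 and Gm47513 are not among them, since each had fewer than 50 counts in the control libraries together. Without control library 4 the number higher was 7.

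Members outside coding genes were called in both directions. Gm48601 and Gm48602, on the minus strand of chromosome 14 within about 0.1 Mb of each other, were lower, at -1.35 ± 0.27 and -1.25 ± 0.34 (edgeR adjusted p = 0.000923 and 0.00797). Gm48755 and Gm9930, also neighbours, on the minus strand of chromosome 10 and 75.4 and 87.3 kb from Samd5, were lower, at -1.34 ± 0.28 and -0.99 ± 0.20. Gm9930 was at 2.73, 2.91, 1.71 and 2.04 CPM in overexpression libraries and at 5.94, 3.52, 4.61 and 4.65 CPM in control libraries, with no overlap. Gm37076 rose by 1.29 ± 0.34 (edgeR adjusted p = 0.00614). At the threshold on counts, Gm38111, Gm42537 and Gm42874, just inside with 100 counts, had log2 fold changes of -0.66, -0.91 and -1.23, and Gm37660, Gm43197 and Gm10209, just outside with 99 counts, had -0.06, 1.03 and 0.59.

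Genes of the machinery that ends and degrades unstable nuclear transcripts are given beside the shares over all genes tested, 18.6% higher and 16.8% lower. Of 22 tested genes of the nuclear exosome and its adaptors, 7 were higher and 3 lower, with a median of 0.09. Exosc10, a catalytic exosome subunit, was at 154 ± 3.3 CPM with overexpression and 104 ± 6.9 CPM in controls (SD, n = 4), a log2 fold change of 0.57 ± 0.06 (edgeR adjusted p = 2.75e-06). Dis3, another exosome nuclease, rose by 0.53 ± 0.07 and Zfc3h1, an adaptor that brings polyadenylated nuclear RNA to the exosome, by 0.40 ± 0.06. The 3 lower genes of this list were Exosc1 at -0.34 ± 0.07, Tent4b at -0.21 ± 0.06 and Zcchc7 at -0.19 ± 0.06. Of 14 Integrator subunits 7 were higher and none lower in edgeR (0 also at an unadjusted p under 0.05 and by DESeq2 or limma-voom), with a median of 0.24. Among the higher were Ints12 at 0.52 ± 0.07, Ints3 at 0.42 ± 0.07 and Ints7 at 0.39 ± 0.06. Of 23 cleavage, polyadenylation and termination factors 10 were higher and 1 lower, with a median of 0.09. Cstf3, Cpsf6 and Cpsf7 rose by 0.41 ± 0.07, 0.36 ± 0.07 and 0.37 ± 0.07, and Pabpc1 was lower, at -0.23 ± 0.08. Of 21 exon junction and mRNA export factors 12 were higher and 3 lower, with a median of 0.24. Poldip3, Thoc5 and Srrt, which encode export and cap-binding cofactors, rose by 0.54 ± 0.06, 0.54 ± 0.07 and 0.58 ± 0.08. Ncbp1, Thoc2 and Nxf1 were lower, at -0.21 ± 0.07, -0.21 ± 0.07 and -0.16 ± 0.06. Nuclear-retained long noncoding RNAs did not share a direction, with 3 of 11 higher and 3 lower: 2700038G22Rik rose by 1.06 ± 0.13, and Kcnq1ot1 and Rian were lower, at -0.46 ± 0.08 and -0.83 ± 0.14. Any link between the genes of these lists and the TEC values was not tested.

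Markers of the line were present, with 9 of 10 neuronal and neuroblastoma markers tested and a summed level of 997 to 1149 CPM in overexpression libraries and 1179 to 1292 CPM in control libraries. Of these 5 were lower, among them Gap43 at -0.57 ± 0.08, Isl1 at -0.51 ± 0.08 and Stmn2 at -0.49 ± 0.06. The 2 higher were Gata3 at 0.48 ± 0.10 and Uchl1 at 0.34 ± 0.08. The summed markers of fibroblasts, glia, leukocytes, epithelium and endothelium each stayed under 10 CPM in every library, and 1 of the 7 tested, Cd68 at 1.3 CPM or less per group mean, was called. The part of these shifts in the TEC values was not tested.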

How the data were processed

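PolyA RNA of 4 Nrsn2 overexpression and 4 control libraries was analysed from 1 table. The deposited counts are raw reads per Ensembl gene, per the file headers. The authors also gave a normalized signal (counts divided by DESeq2 size factors), their log2 fold change and its error, a test statistic (a score), and a p-value with its adjusted p-value, per the file headers. These deposited comparison columns were not used for any result. Per the submitters' processing notes, the tools were TopHat2 2.1.1, cutadapt 2.10, DESeq2 1.36.0 and HTSeq 2.01, with the build GRCm39. What each tool did, which annotation was used and whether counting used strand is not given in the sources used here. Of 55414 rows, 6250 without values were left out.

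Counts were compared with edgeR 4.0.16 in R 4.3.3 (quasi-likelihood test, TMM factors, filterByExpr with a minimum count of 10), with p-values adjusted over all 15187 genes tested. Standard errors were derived from the F statistic. Ratios to the host, the overlapping coding row with the longest overlap, were tested with limma 3.58.1 (trend and robust). The common biological coefficient of variation was 0.0862. The edgeR and limma steps were tested on simulated data. Sequence features came from GENCODE M21 (GRCm38), matched by gene identifier, and 750 of 752 lengths were equal in both builds. Shared sequence was the percentage of a member's 31-base words found in coding transcripts other than its host. Without strand, reads of overlapping genes on either strand cannot be told apart.

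The members, gene lists and tests were chosen with earlier results of these data known. Named per class were the 4 most abundant members, and the 4 largest rises and falls among called members whose groups did not overlap, with their hosts. The 4 largest changes of the ratio in each direction, 3 rows on each side of the count threshold and 3 genes per list with the smallest p were also named. Members named under several hosts or as other head-to-head or AATAAA examples were chosen after their values were seen. Alternatives were DESeq2 1.42.0, limma-voom, RLE factors, no filter, other thresholds and overlap rules, a replicate block and leaving out each library. A host gene with several members is not reported here.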

Additional observations from a re-analysis of the deposited data

Results flagged for a closer look

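Among 106 groups of 4 libraries examined, 8 had a library whose gap to the next was past Dixon's 95% critical value, and chance flags about 1 in 20 groups. Gm38312, in Sh3bp4, was at 49.38 CPM in control library 1, with the other controls at 41.34 to 42.59 CPM. Gm48335 was at 1.802 CPM in control library 3, against 1.095 to 1.177 CPM in the other controls. Gm47513 was at 0.04896 CPM in control library 4 and at 0 in the others. Gm26616 was at 0.5766 CPM in control library 2, against 0.2448 to 0.2943 CPM in the other controls, and Gm37076 was at 0.173 CPM in control library 2, against 0.534 to 0.5886 CPM. The median log2(CPM + 0.1) of opposite-strand members without a host exon was 0.508 in overexpression library 4 and 0.73 to 0.7566 in the other overexpression libraries. For same-strand members that touch a host exon it was 1.535 in overexpression library 2 and 0.9769 to 1.034 in the others. For the hosts of intronic members it was 6.474 in overexpression library 3 and 6.513 to 6.521 in the others.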

How the results depend on the processing

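The members called numbered 59 higher and 233 lower, and these counts were 52 and 193 by DESeq2, 57 and 232 by limma-voom, 59 and 238 with RLE factors, 55 and 217 without the low-count filter, and 59 and 188 with GC and length offsets (added after seeing the data). Under a total of 200 or more counts, 150 members were lower in all, 116 in the same-strand class and 19 in the opposite-strand class, and 18 were higher in the class without overlap. Where a coding row had to cover the member whole, 6 opposite-strand members were higher. After leaving out members with over 10% shared words (added), 8 intronic members were higher, and with 50 or more counts in each group (added) 5 head-to-head members were higher. These filters leave fewer members, so their counts are not shares of the full groups. The replicate numbers did not pair the samples: correlations of same-numbered deviations were -0.102, -0.035, 0.059 and -0.077. With the replicate block, 53 members were higher and 207 lower, 165 of the same-strand class were lower, and 121 same-strand ratios were lower.

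Leaving out 1 library at a time gave 45 to 55 higher and 167 to 225 lower members, 134 to 177 lower in the same-strand class, 129 to 166 lower intronic members, and a median intronic log2 fold change of -0.56 to -0.47. Lower members without overlap numbered 11 to 24 (11 without overexpression library 3), lower opposite-strand members 19 to 28 (19 without overexpression library 4), and higher head-to-head members 7 to 12 (7 without control library 4). Lower ratios numbered 89 to 144 in the same-strand class (89 without control library 4) and 14 to 24 in the opposite-strand class (14 without control library 1 or 4). The cause was not tested. Of 896 values of 64 named genes under these alternatives, 846 kept their call and direction, 33 lost the call, 6 gained one, 11 uncalled values changed sign and 0 called values did.

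Most members had few counts, so single values have wide errors, and members that share sequence with other genes are uncertain.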
